A study of Caenorhabditis elegans with 2 samples.

Results

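Chromatin immunoprecipitation with sequencing (ChIP-seq) recovers DNA that is bound by a chosen protein in cells, and the deposited lists give the genome regions where such DNA piled up for HMBX-1, a homeobox protein of Caenorhabditis elegans. The regions described here lie at genes that the genome annotation calls only ncRNA, a class for noncoding transcripts that were given no more precise type. Of 29978 regions on the nuclear chromosomes in the relaxed list of both replicates pooled, 1212 had their summit, the position of highest signal in a region, within 250 bp of such a gene, more than 250 bp from any tRNA, snoRNA, snRNA, rRNA or miRNA gene, and more than 500 bp from any start of a protein-coding gene. Genes with the prefixes rpr, mrpr and srpr were left out of the class, together with 3 regions within 250 bp of one of them. Because many regions overlap a neighbour, the 1212 regions form 1028 separate loci after merging.

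The material was whole early embryos of mixed sex from strain OP656, which carries the allele tm4063 of unc-119 on chromosome III and the transgene wgIs656, a fusion of HMBX-1 with GFP and FLAG at its C terminus. Embryos were collected by bleaching and taken 45 min later. The sample description names an anti-GFP antibody, whereas the antibody field of the labels names hmbx-1. The 2 samples are biological replicates of 1 group with a common control file, every library carries the same alleles, and no untagged strain was analysed here, so the study allows no test between conditions.

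As background, HMBX-1 is related to the human protein HMBOX1, also called HOT1, a homeobox protein known for binding telomere repeats directly. Most noncoding RNA genes are read by RNA polymerase II or RNA polymerase III. Genes for tRNAs carry internal promoter elements, the A box and the B box, that recruit the RNA polymerase III factor TFIIIC, and such elements can also occur away from annotated tRNA genes. Dinucleotide repeats, or microsatellites, are stretches in which a pair of bases recurs many times, and they change length readily during replication. Most genes of the ncRNA class in this species have a sequence name only. Of the 7757 nuclear ncRNA genes used here, whose median length was 140 bp, 7 have a gene symbol.

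Sequences from 3 kinds of strong region are shown first because the results refer back to them. They do not cover all strong members: C30E1.9, for instance, held none of these features. All are given 5′ to 3′ on the plus strand of assembly ce11. The first pair is the adjacent summits with the highest signal of all members, at chrX:11605876-11605996 and chrX:11606086-11606206, with 60 bases on either side of each summit; capitals mark the longest word that the pair shares, 11 bases, and the summits lie 210 bp apart.
F52D10.7: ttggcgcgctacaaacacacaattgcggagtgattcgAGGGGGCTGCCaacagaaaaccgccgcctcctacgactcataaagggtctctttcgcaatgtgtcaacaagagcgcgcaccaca
F52D10.9: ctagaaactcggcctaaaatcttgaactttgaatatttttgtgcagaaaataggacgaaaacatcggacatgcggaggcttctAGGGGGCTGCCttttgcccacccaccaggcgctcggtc

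The second pair holds a match to GTTCNANNC, a relaxed form of the tRNA B box, marked in capitals. These are chrII:14496980-14497100 and chrX:3914421-3914541, and in the latter the match is on the minus strand.
K10H10.14: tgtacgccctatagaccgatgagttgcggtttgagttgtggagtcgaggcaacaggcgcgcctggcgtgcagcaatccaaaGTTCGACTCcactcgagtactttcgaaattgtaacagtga
T22B2.12: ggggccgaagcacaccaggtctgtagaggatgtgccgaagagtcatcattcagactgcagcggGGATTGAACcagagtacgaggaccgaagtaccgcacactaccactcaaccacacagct

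The third set shows where an uninterrupted repeat of A and C (T and G on the other strand) begins, with the 40 bases before the repeat in lower case and its first 20 bases in capitals. The positions are chrIII:445611-445670, chrX:4606469-4606528 and chrV:13868834-13868893, and the repeats run on for 127, 152 and 224 bp in all. The bases before the repeats at Y55B1BR.7, T13H2.7 and F09F3.17 differ from one another.
Y55B1BR.7: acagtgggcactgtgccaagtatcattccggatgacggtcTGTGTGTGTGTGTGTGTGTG
T13H2.7: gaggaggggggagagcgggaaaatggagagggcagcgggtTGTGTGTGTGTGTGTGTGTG
F09F3.17: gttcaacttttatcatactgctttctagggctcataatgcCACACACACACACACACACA

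Most of the 1212 regions were weak, and few reached the authors' thresholded list, which keeps regions that recur between replicates. The thresholded list has 416 nuclear regions. The authors' signal value ran from 21.7 to 486.8 among the members, with a median of 31.5, against a median of 30.6 for all other nuclear regions, a difference of 0.04 on the log2 scale. In replicate 1 alone the difference of medians was 0.02, and in replicate 2 alone it was 0.03. Of the 1212 members, 32 (2.64%, 95% exact Clopper-Pearson interval 1.81 to 3.71) overlapped a thresholded region, against 2.24% of all nuclear regions. This share is near the background. In 18 members (1.49%, interval 0.883 to 2.34) the summit itself was a thresholded summit, against a background of 1.39%. The intervals cover the counting of regions only, since neighbouring regions share reads and the read depth is unknown.

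The background of all nuclear regions includes those at small RNA genes and promoters, which the members exclude by rule. Among the 20792 nuclear regions that passed the same exclusions but had no ncRNA gene within 250 bp, 85 (0.409%, interval 0.327 to 0.505) overlapped a thresholded region and 55 (0.265%) had a thresholded summit. The members' interval lies above the interval of these regions, but overlapping regions were counted singly in both. The 32 members at thresholded regions form 19 loci, and no merged share was taken for the regions without an ncRNA gene. The members were also richer in G and C, with a median of 38.6% in the 101 bp around the summit against 33.7%, and the part of base composition in the difference was not tested. Among the 100 nuclear regions of highest signal 3 were members, or 0.248% of members against 0.334% of all nuclear regions. Among the highest 1000 there were 46, or 3.795% of members against 3.34% of all nuclear regions.

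Presence in the replicates followed a similar order. A region in both replicate lists overlapped 574 members (47.4%, interval 44.5 to 50.2), against 39.6% of all nuclear regions and 35.6% of those without an ncRNA gene. Replicate 1 had a region at 899 members and replicate 2 at 789, and each count includes the 574 with both. A further 98 members overlapped a region in neither. All 32 members that overlapped a thresholded region had one in both, and so did all 671 nuclear regions that overlapped one. The thresholded list keeps regions that recur between replicates, so this says nothing particular about the members.

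**Figure D1:**
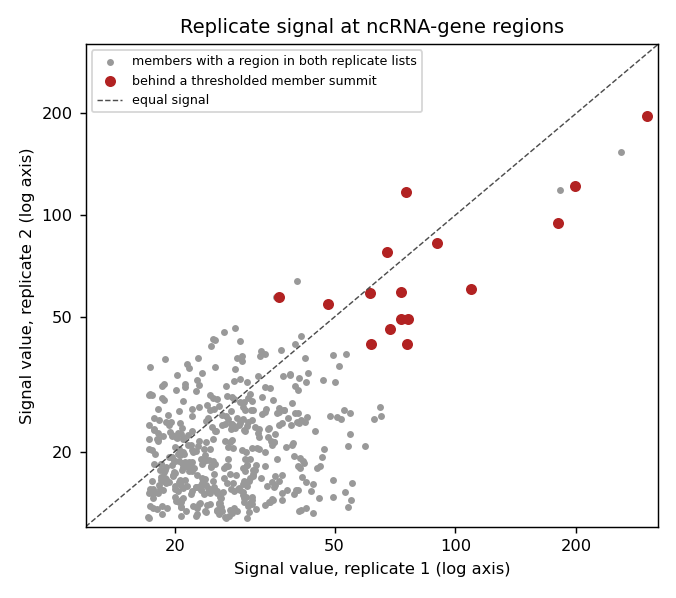
Signal value in replicate 1 (horizontal) against replicate 2 (vertical), both on log axes, for the 462 distinct pairs of replicate regions that members overlap in both lists. Red points stand for the 16 pairs behind members with a thresholded summit, and the dashed line marks equal signal; most points lie below it, and the red points lie towards the upper right.

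The plot of replicate signals shows how closely the replicates ranked these loci. Across the 462 distinct pairs, which share the control file and the caller, Spearman's rho was 0.25 and Pearson's r was 0.82. The larger Pearson value goes with a few pairs of very high signal. The signal of replicate 1 exceeded that of replicate 2 in 363 pairs (78.6%), with a median log2 ratio of 0.40, and among the other nuclear regions it did so in 81.8% of 8346 pairs. Within the 16 pairs behind the members with a thresholded summit, replicate 1 was higher in 12.

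The locus with the highest signal was F52D10.7 and its neighbour F52D10.9 on X, upstream of ftt-2, which encodes a 14-3-3 protein, an adaptor that binds phosphorylated partners. At F52D10.7 the pooled signal was 486.8, which ranked 7 of all nuclear regions, and at F52D10.9 it was 352.9, which ranked 16. The strongest overlapping replicate regions were the same for both, of signal 299.0 in replicate 1 and 195.7 in replicate 2. Weaker replicate regions there were not counted, so whether the replicates also hold a pair is not known. The summits lay inside their genes, 517 and 727 bp from the ftt-2 start, just beyond the 500 bp that would have left them out. F52D10.7 had 4 ncRNA genes within 250 bp, on both strands.

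Next came K10H10.14 on II, 986 bp from the start of dhs-8, a short-chain dehydrogenase gene. Its pooled signal was 274.5, with 179.5 in replicate 1 and 94.7 in replicate 2. The B box-like word shown above lies close to this summit, and the nearest annotated tRNA or other small RNA gene is 22127 bp away. T22B2.12 on X, which has the same kind of word, had a pooled signal of 116.4, with 61.2 and 58.8 in the replicates. Its nearest small RNA gene is 55075 bp away, its nearest protein-coding start is that of idpp-9 at 1367 bp, and T22B2.9 lies on the opposite strand within reach of the same summit.

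C30E1.9 on X is the longest ncRNA gene in the annotation, at 14770 bp, and it was the nearest ncRNA gene of 10 members, more than any other gene. A summit 139 bp from its 5′ end had a pooled signal of 191.1, with 75.2 in replicate 1 and 117.3 in replicate 2. A second thresholded summit, 14451 bp from the 5′ end, had a pooled signal of 131.0, with 73.2 and 59.3 in the replicates. The nearest protein-coding starts were those of C30E1.4, 6117 bp from the first summit, and F52G3.8, 8594 bp from the second. Among the members, the signal thus stood near both ends of the gene. Members between the thresholded summits had pooled signals of 24.98 to 60.9. Regions within 250 bp of a small RNA gene are no members, so this does not cover the whole gene. The snoRNA gene F52G3.6 lies inside C30E1.9, 848 bp from the second summit, and a tRNA gene lies 1712 bp from the first. Another member, 206 bp beyond the second summit, overlapped its thresholded region with a signal of 76.1. These thresholded regions were narrow in the pooled list, 127 and 128 bp; the only other members under the usual 490 bp were F52D10.7 at 359 bp and F52D10.9 at 291 bp.

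**Figure D2:**
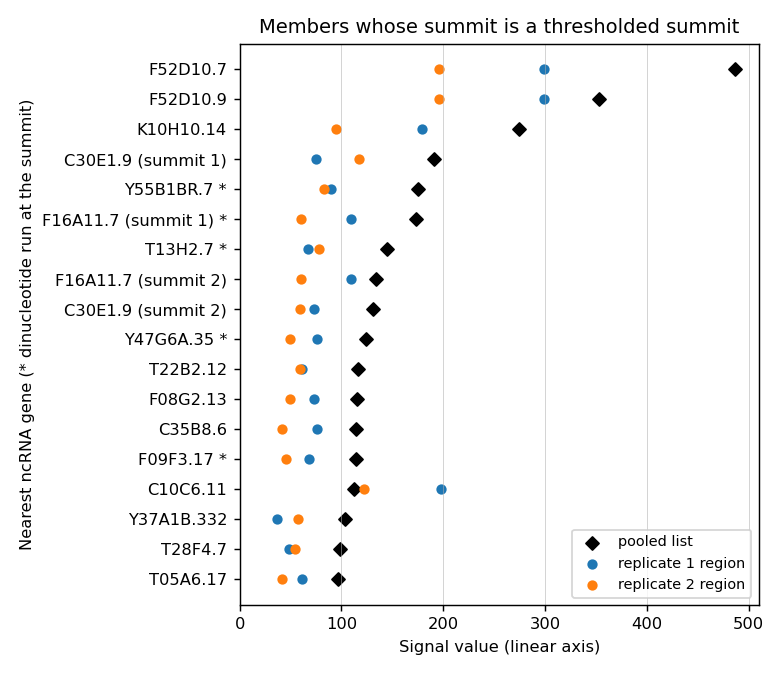
Signal value (horizontal, linear axis) for each of the 18 members whose summit is a thresholded summit, by nearest ncRNA gene: black diamonds for the pooled list, blue and orange points for the overlapping region in replicates 1 and 2. Asterisks mark the 5 summits at a dinucleotide repeat of 20 bp or more; F52D10.7 stands highest in the pooled list, at 486.8, and C10C6.11 is the only member whose replicate values exceed the pooled one.

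The remaining members with a thresholded summit and no dinucleotide repeat of 20 bp or more within 50 bp had pooled signals from 96.8 to 134.2. In the intron of vav-1, a gene for a guanine nucleotide exchange factor of the Vav family, the summit at C35B8.6 had a pooled signal of 114.6, with 75.5 in replicate 1 and 41.5 in replicate 2. F08G2.13 on II reached 114.9, with 73.0 and 49.5 in the replicates, and its nearest small RNA gene, an snRNA gene, lies 1439 bp away, while the start of F08G2.5 lies 867 bp away. T05A6.17, 1180 bp from the start of cki-1, an inhibitor of cyclin-dependent kinases, reached 96.8, with 61.7 and 41.5 in the replicates. Each of these was higher in replicate 1.

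By contrast, replicate 2 was the higher at Y37A1B.332 on IV, with 57.5 against 36.5 and a pooled signal of 103.7. The miRNA gene mir-52 is its nearest small RNA gene, 1198 bp away, and Y37A1B.7 its nearest protein-coding start, 10970 bp away. T28F4.7, which lies in an intron of T28F4.1, also had the higher value in replicate 2, 54.8 against 48.2, with a pooled signal of 98.9. The second summit at F16A11.7, 53 bp beyond the gene, had a pooled signal of 134.2 and shares its replicate regions with the first summit there. C10C6.11 on IV, over a coding exon of catp-8, a P-type ATPase gene, had a pooled signal of 112.5, and its nearest protein-coding start was that of wht-2, 4041 bp away. Its replicate values of 198.1 and 121.7 belong to a stronger thresholded summit 199 bp away, of signal 319.8, which lies at a snoRNA gene, C10C6.8.

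The other 14 of the 32 members overlapped a thresholded region without holding its summit, and stood 199 to 224 bp from it (median 205.5 bp). For 11 of them the thresholded summit belonged to another member, and they add no locus. One of these had F08G2.12 as its nearest ncRNA gene, with a signal of 55.9, beside the summit at F08G2.13. The 3 others flanked summits that the rule leaves out. F36H1.17, with a signal of 86.9 and hrg-5 as its nearest protein-coding start, lies 270 bp from mir-51 and beside a summit of signal 408.9. C05D2.16, in an intron of madf-11 with a signal of 66.5, lies 251 bp from the snoRNA gene C05D2.15 and beside a summit of 299.7. AH9.7, with 57.4, lies 595 bp from the start of rpl-11.2, which encodes a ribosomal protein, and beside a summit of 99.0. Merged, the 32 members form 19 loci.

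A feature that recurred among the members with a thresholded summit was the AC repeat. A run was counted as the longest uninterrupted alternation of A and C, or of G and T, that reaches within 50 bp of the summit, and 20 bp was the minimum; the search was chosen after the summit sequences had been seen. Of the 18 members with a thresholded summit, 5 (27.8%, interval 9.69 to 53.5) had such a run. Over all 32 members that overlapped a thresholded region the share was 15.6% (5 of 32). Over all 416 thresholded summits there were 10 (2.40%), and among the 208 at small RNA genes there was none. The class most like the members, the 61 thresholded summits that pass the rules on small RNA genes and protein-coding starts but are no members, had 3 (4.92%, interval 1.03 to 13.7), and that interval overlaps the one of the members. Of all members 12 (0.990%, interval 0.513 to 1.72) had a run, against 0.160% of nuclear regions and 0.120% of regions without an ncRNA gene.

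At the intergenic Y55B1BR.7 on III, 1306 bp from the start of Y55B1BR.8, with a run of 127 bp, the pooled signal was 175.1, with 90.1 in replicate 1 and 82.5 in replicate 2. F16A11.7, in an intron of ppfr-1, which encodes a regulatory subunit of protein phosphatase 4, had a run of 189 bp, a pooled signal of 173.2 and replicate signals of 109.1 and 60.3. At T13H2.7 on X, 587 bp from the start of spat-3, a RING finger gene, the run was 152 bp and the pooled signal 144.4, with 67.4 and 78.0 in the replicates. All 3 stood above the median thresholded nuclear region, which had a signal of 134.0.

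The shortest run of the 5, 53 bp at Y47G6A.35 in an intron of lpd-3, a lipid transfer protein gene, and 3626 bp from the start of Y47G6A.33, had a pooled signal of 123.7 and replicate signals of 76.3 and 49.3. The longest, 224 bp at F09F3.17 on V, 2284 bp from nhr-175, a nuclear hormone receptor gene, had the lowest signal of the 5, at 114.6, with 68.5 and 45.9 in the replicates. The order of the signals did not follow the length of the runs among these 5.

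In each case the annotated ncRNA gene was little more than the repeat. The run covered 96.9% of Y55B1BR.7 (chrIII:445651-445781, minus strand), 98.1% of T13H2.7 (chrX:4606507-4606661, minus strand), 99.3% of F09F3.17 (chrV:13868953-13869098, plus strand), 99.0% of F16A11.7 and 93.0% of Y47G6A.35. F16A11.7 is annotated on both strands over the same span, and T13H2.7 overlaps T13H2.9 on the other strand. Among all 7757 ncRNA genes, 18 (0.232%) were covered by such a run over more than 90% of their length, at 14 separate runs. Of these 18 genes, 16 had a relaxed summit within 250 bp, 15 had a member and 8 had a member with a thresholded summit, the 8 sharing 5 runs.

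**Figure D3:**
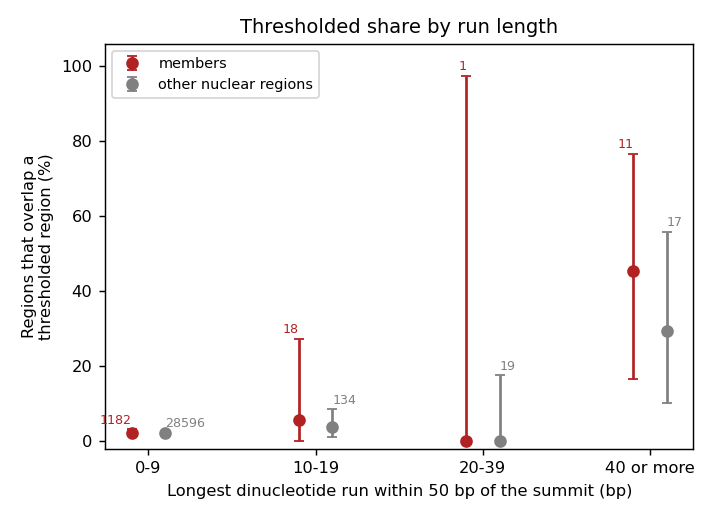
Share of regions that overlap a thresholded region (vertical, percent) by the length of the longest AC run within 50 bp of the summit (horizontal), for members in red and other nuclear regions in grey, with 95% exact intervals; the number above each bar is the number of regions. The share was 45.5% in the 11 members and 29.4% in the 17 other regions with runs of 40 bp or more, and the intervals overlap.

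The plot of the share by run length sets the members beside other regions with like sequence. Of 11 members with a run of 40 bp or more, 5 (45.5%, interval 16.7 to 76.6) overlapped a thresholded region, and of 17 other nuclear regions with such a run 5 did (29.4%, interval 10.3 to 56.0). The members and the other regions are not told apart at this number of regions. Regions that share a run were each counted: the 10 thresholded summits at runs of 40 bp or more lie at 9 runs. With runs of 0 to 9 bp, 26 of 1182 members did (2.20%), and so did 2.20% of the 28596 other nuclear regions. Counted from the genome, there were 38 runs of 40 bp or more, of which 27 (71.1%, interval 54.1 to 84.6) had a relaxed summit and 9 (23.7%) a thresholded one within 50 bp. Of the 18 such runs that overlap an ncRNA gene, 13 had a relaxed and 5 a thresholded summit, and of the 20 that overlap none, 14 had a relaxed and 4 a thresholded summit. Of 223 runs of 20 to 39 bp, 21 (9.42%) had a relaxed summit and none had a thresholded one.

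Several members at long runs were not thresholded. K06G5.6 on X, with a run of 179 bp, was the member of highest signal that overlapped no thresholded region, at 91.5, with 53.3 in replicate 1 and 38.9 in replicate 2. Its deposited −log10 q value of 2.14 was above the 2.03 of the thresholded Y47G6A.35. R11E3.16, in an intron of nhr-104, with 149 bp, had 81.3, with 39.9 and 41.5 in the replicates. F54B11.14, with 114 bp, had 59.2, with 41.3 in replicate 1 and only 13.5 in replicate 2. F10F2.15, with 98 bp, had 72.8, with 42.8 and 34.2. Counted by region, not by run, 4 of 7 members and 4 of 5 other nuclear regions had a thresholded summit at 100 bp or more. From 20 bp to below 100 bp, 1 of 5 members and 1 of 31 other regions had one.

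**Figure D4:**
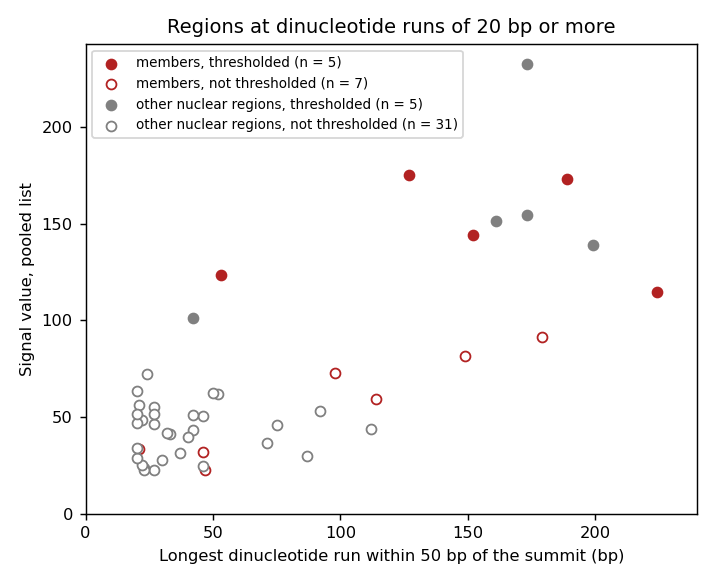
Pooled signal value (vertical) against the length of the longest AC run within 50 bp of the summit (horizontal, bp) for all nuclear regions with a run of 20 bp or more: red for the 12 members, grey for the other 36 regions, filled where the summit is thresholded. Filled points lie mostly at long runs, and open red points at 149 and 179 bp lie at signals of 81.3 and 91.5.

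Reads from such repeats can be hard to place in a genome. Of the 30-base words in the 101 bp around the summit, none was unique in the genome at Y55B1BR.7, F16A11.7 and F09F3.17, and 56.9% were unique at T13H2.7 and Y47G6A.35. F54B11.14, which was not thresholded, had 0% unique words as well, and F10F2.15 had 84.7%. What was done with reads of more than 1 possible position is not given in the sources used here, and the part of mapping in these signals was not tested. Across all members, 1109 (91.5%) had only unique words, against 89.0% of nuclear regions, and 30 (2.48%) had fewer than 50% unique words, against 3.20%.

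Repeats of A and G were counted beside those of A and C. Runs of 20 bp or more of alternating A and G occurred at 11 members (0.908%, interval 0.454 to 1.62), against 0.113% of nuclear regions. None of the 11 overlapped a thresholded region. Over all members 2.64% did, and over all nuclear regions 2.24%, so 11 members are too few to show a lower share. No thresholded nuclear summit had such a run (0 of 416, interval 0 to 0.883). The longest AG run at a member was 109 bp and the longest AC run 224 bp, so the lengths were not matched, and the difference between the kinds of run was not tested. More than 90% of the length was AG run in 31 ncRNA genes, of which 15 had a member and none a thresholded one. Over all ncRNA genes 0.309% had a member with a thresholded summit, so 31 genes are too few to show a lower share.

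The words searched for showed little among the members as a whole. The letters TTGCAA were in 61 members (5.03%), against 5.601% of nuclear regions. They and the words that follow were searched on both strands within 50 bp of the summit. TTGCAA was in 11.5% of all thresholded summits and in 18.75% of those away from small RNA genes. The B box word GTTCGA was in 41 members (3.38%, against 3.52%). The relaxed GTTCNANNC, which can overlap it, was in 36 (2.97%, against 3.55% of nuclear regions). Of all thresholded summits 28.1% had GTTCNANNC, and of those away from small RNA genes 6.73% did. The telomere repeat unit TTAGGC was in 52 members (4.29%, against 3.47%), and TAGTTA, the core of the human HMBOX1 motif, in 42 (3.47%, against 4.17%). AGTGGT, an A box word, was in 40 (3.30%, against 3.33%), and TGTCGG in 32 (2.64%, against 2.45%). Of the 18 members with a thresholded summit, 2 had GTTCNANNC, 2 had GTTCGA, 2 had TTAGGC, 1 had AGTGGT and 1 had TTGCAA. None had TAGTTA or TGTCGG. Among the thresholded summits away from small RNA genes, 6.73% had GTTCGA, 6.73% had AGTGGT and 2.40% had TTAGGC.

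When all words of 6 letters were ranked by their difference from all nuclear regions, a ranking also made after the sequences had been seen, purine words and AC words led. AGAAGA was in 15.3% of members against 9.003%, AGAGAG in 11.1% against 5.15%, and ACACAC in 9.41% against 3.94%. At the other end, AAAATT was in 32.6% against 49.6%. The higher share of G and C in the members moves with these differences, and its part was not tested.

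**Figure D5:**
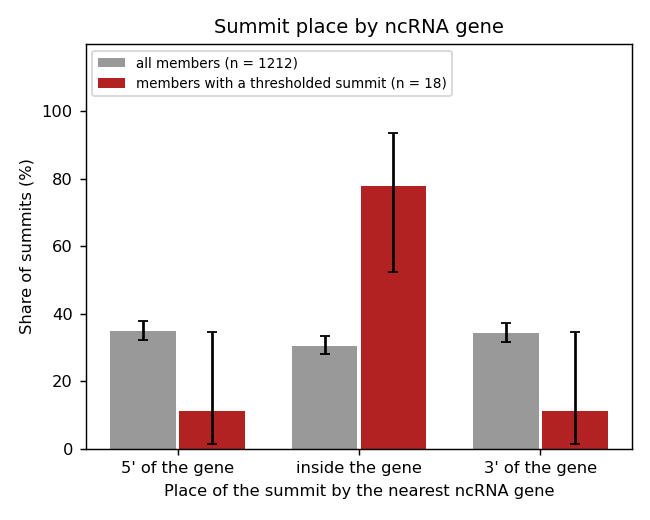
Share of summits (vertical, percent) that lie 5′ of, inside or 3′ of the nearest ncRNA gene, by its strand, for all 1212 members in grey and the 18 with a thresholded summit in red; bars start at 0 and the error bars are 95% exact intervals. Inside the gene lie 30.6% of all members and 77.8% of the 18.

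The place of the summit by the gene was read from the strand of the nearest gene. Over all members, 371 summits (30.6%, interval 28.0 to 33.3) lay inside the nearest ncRNA gene, 424 (35.0%) on its 5′ side and 417 (34.4%) on its 3′ side, so neither side stood out. Of the 18 with a thresholded summit, 14 (77.8%, interval 52.4 to 93.6) lay inside, 2 on the 5′ side and 2 on the 3′ side. The 5 summits at AC runs are among the 14. Strand carries little meaning for 270 members (22.3%), which had ncRNA genes on both strands within 250 bp. The nearest gene had a median length of 144 bp, close to that of all ncRNA genes.

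Relative to protein-coding genes, 608 members (50.2%) lay between genes, 500 (41.3%) in introns, 54 (4.46%) in coding exons and 50 in other exons. Of the regions without an ncRNA gene, 12.4% lay in coding exons and 37.6% between genes. Of the thresholded 18, 12 lay between genes, 5 in introns and 1 in a coding exon. The X chromosome held 332 members (27.4%, interval 24.9 to 29.998), while it held 16.2% of nuclear regions and 32.5% of ncRNA genes. Per 100 ncRNA genes, X had 13.2 members, fewer than any other chromosome, and chromosome III had most, 21.1. Of the 32 members at thresholded regions, 12 were on X, which is 3.61% of the members on X against 3.15% of all regions on X, and so near that background.

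Seen from the genes, 2008 of the 7757 ncRNA genes (25.9%, interval 24.9 to 26.9) had a relaxed summit within 250 bp, 1331 (17.2%) had a member and 24 (0.309%) a member with a thresholded summit. Other noncoding classes were rarely in reach of the members. A lincRNA gene was in reach of 7 (0.578%, against 0.407% of nuclear regions) and an antisense RNA gene of 4 (0.330%, against 0.147%). A pseudogene was in reach of 14 (1.16%, against 2.03%) and a piRNA gene of 25 (2.06%, against 3.55% of nuclear regions). The members lay as nearest neighbours of 1042 different ncRNA genes, and 883 of these had 1 member.

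The members at ncRNA genes with a symbol were weak. Of 4 relaxed regions within 250 bp of tts-2, the strongest had a signal of 73.2 and was no member. One member 199 bp from tts-2 had a pooled signal of 56.8, with 39.9 in replicate 1 and 25.97 in replicate 2, and another inside it had 29.98, with 44.7 and 23.0. At rncs-1, a noncoding RNA known to inhibit Dicer, the signal was 28.9, with 19.9 in replicate 1 and no region in replicate 2. The genes lfor-1 and lfor-2 had pooled signals of 26.8 and 24.0, with 20.5 and 17.1 in replicate 1 and no region in replicate 2. Only 40.3% and 13.9% of the 30-base words at these summits were unique, and both hold the relaxed B box word. None of these 5 members overlapped a thresholded region, and tts-1, yrn-1, a Y RNA gene, and linc-171 had no relaxed summit within 250 bp.

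Below K06G5.6, the next members that overlapped no thresholded region had signals of 85.5 at F56A11.10, in an intron of the ephrin gene efn-4, 84.9 at M03F4.13, 84.5 at C25F6.15 and 83.9 at C27D6.14, in an intron of crh-2. F31E8.9 had 83.8, ZK20.8 had 82.3, F40F9.15 had 81.6 and F58A3.6, in an intron of ldb-1, had 80.8. All 10 members of this group, R11E3.16 and K06G5.6 included, had a region in both replicates, with 36.8 to 65.3 in replicate 1 and 22.6 to 43.9 in replicate 2. Their values lie just under the lowest signal of the thresholded nuclear regions, 95.3.

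Most regions nearest the limits of the rule had a low pooled signal, though some of them overlapped a thresholded region. A region exactly 250 bp from T24A11.5 was kept with a signal of 59.4, and one 252 bp from F56F3.7 was left out with 40.1. At the limit for protein-coding starts, C16B8.9 was kept at 501 bp with 25.2, while F38E11.21, 498 bp from the start of wrt-3, was left out with a signal of 112.4 and a thresholded region. At the limit for small RNA genes, C05D2.16 was kept at 251 bp with 66.5 and F36H1.17 at 270 bp with 86.9. Both overlapped a thresholded region. ZK897.9 was left out at 250 bp with 44.6. T08B2.14 was also left out at 250 bp, with 22.4, and it overlapped a thresholded region.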

How the data were processed

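Per the file headers and the labels, the authors deposited narrowPeak lists on ce11 for each replicate, for the pooled replicates (30000 regions) and after thresholding by the irreproducible discovery rate (437 regions). Both replicates have a common control. The signal value and the −log10 q value of each region are the authors' deposited values and were used only to describe and rank regions within a list. No aligner, peak caller or handling of reads with more than 1 possible position is named in the sources used here. The depth of reads is unknown, so no value has a counting error from reads. Lists on ce10 were not used.

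Summits were set against Ensembl release 115 gene models of WBcel235, the same assembly as ce11, and sequence came from the RefSeq copy of that assembly. A region was called where it overlapped a thresholded region by at least 1 bp, and counted apart where its own summit was a thresholded summit. Positions are 1-based, and a start is the 5′ end of a gene. Mitochondrial regions were left out. Words were searched on both strands within 50 bp of the summit, and unique 30-base words were counted over the nuclear genome on both strands. Python 3.11.15, pandas 2.3.3, numpy 2.4.6, SciPy 1.17.1 and matplotlib 3.10.9 were used, and distances, overlaps, merging and run finding were tested on simulated data. With 1 group of 2 replicates no test over samples was made, and shares have 95% exact Clopper-Pearson intervals. The members and lists were chosen with earlier results of these data known.

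Named are the nearest ncRNA genes of all members at thresholded regions, of the 10 strongest other members and of members at genes with a symbol, the protein-coding hosts or neighbours of the first set, and members at the limits of the rule. The members at long repeats and the gene counts for repeats were added after their values were seen. Alternatives varied the distances, the call, the replicate lists, merging, the use of midpoints and the word window.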

Additional observations from a re-analysis of the deposited data

How the results depend on the processing

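Most alternatives left a result within its interval or, for counts, within 1.5 times: this held for 22 of 37 values, and none changed sign. The log2 difference of median signal has no interval, and all its alternatives were counted as moved. The standard deviation of that difference between the replicates was 0.0011. With an ncRNA gene within 100 bp there were 720 members, and within 500 bp there were 1863. Of the 1212 members, 1.49% had the thresholded summit itself, and 1.16% overlapped thresholded regions at or above that list's median signal, for which the share of all nuclear regions was 1.17%. Taking the 416 strongest regions of 1 replicate in place of the thresholded list gave 2.64% (replicate 1) to 2.81% (replicate 2), against 2.245% and 2.195% of all nuclear regions, and merging gave 1.85% against 1.60%. Keeping regions at rpr, mrpr and srpr genes gave 1215 members with 2.80% called, and leaving out members at AC runs gave 2.25%. The log2 difference of median signal stayed positive and near 0: 0.024 to 0.026 in 1 replicate, 0.057 and 0.014 with genes within 100 and 500 bp, 0.045 and 0.029 at 250 and 1000 bp from starts, 0.040 with regions at rpr, mrpr and srpr genes kept and 0.069 against regions without an ncRNA gene. The share in both replicates was 18.6% when summits had to lie within 100 bp, and 44.4% over merged loci. TTGCAA was in 10.9% of members within 100 bp of the summit. Shares of all nuclear regions were not taken for these replicate and TTGCAA settings. Whether the members differ from the background there is therefore not known. Of members with a thresholded summit, 27.8% to 33.3% were at an AC run under each alternative run length, reach and merging, all chosen after seeing the data. The cause of these differences was not tested, beyond the wider or narrower windows themselves. No paired analysis was possible because the 2 samples form 1 group. The lists hold no read counts, so depth limits every value to an unknown degree.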
